A study of Mus musculus with 13 samples.

Results

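Cells that carried the general leukocyte transcript Ptprc but no macrophage transcript Adgre1 were followed through liver regeneration in tissue sections. Transcripts had been located one by one in the tissue with Molecular Cartography, for a panel chosen in advance. A cell was taken as a member when its outline held a Ptprc count of at least 2, an Adgre1 count of 0, and counts below 3 of both Lrat, a stellate cell gene, and Pecam1, an endothelial gene. The rule kept 1978 of 131221 cells, or 1.51%. It started from 9340 cells with a Ptprc count of at least 2, of which 5610 had an Adgre1 count of 1 or more, a further 1316 had a Pecam1 count of 3 or more, and a further 436 had an Lrat count of 3 or more.

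The sections came from the livers of male C57BL/6 mice labelled as 2 months old, from which 2/3 of the liver had been removed. The 13 sections covered 0 h, 24 h, 48 h and 72 h with 2 sections each, 14 d with 3, and 3 mo and 6 mo with 1 each. The tissue was frozen and sectioned. The 0 h sections carry the same treatment text as the others, and no section from an unoperated animal was analysed here. No label ties sections to separate animals, so p-values measure the spread between sections, which may be technical. The labels do not say whether 2 months was the age at surgery or at collection. If it was the former, mice were older by 3 mo and by 6 mo, and age cannot be told apart from time after surgery there. The libraries of 24 h, 48 h and 3 mo were on slide 1 and that of 6 mo on slide 2, while 0 h and 72 h had their section 1 on the former and their section 2 on the latter. Slide 3 carried the 14 d sections and nothing else, so the slide cannot be told apart from the time for them. Both pieces of 24 h shared a slide position and were summed to 1 library in every test, which left 12 libraries.

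Ptprc encodes CD45, a phosphatase at the surface of white blood cells of all kinds. Adgre1 encodes F4/80, a surface receptor of Kupffer cells, the resident macrophages of the liver sinusoids. Lyz2 encodes lysozyme M, an enzyme that digests bacterial walls and is made by macrophages, monocytes and neutrophils, whereas lymphocytes make little of it. In the resting liver, leukocytes other than Kupffer cells lie in the sinusoids and gather in the portal tracts beside the bile ducts. After removal of liver tissue, myeloid cells are known to enter the liver and to send signals to hepatocytes.

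The 100 genes analysed here limited how far the members could be named. Besides Ptprc they included 2 macrophage genes, Adgre1 and Lyz2. Lymphocyte markers were not analysed here, nor were the 3 neutrophil markers S100a8, S100a9 and Ly6g. Members therefore could not be assigned to a leukocyte type, and they are described by their rule and by Lyz2. Their outlines also held much transcript of other cells. The 9 central and 6 portal hepatocyte genes used below made up 40.5% of the 659843 counts in members, Lyz2 made up 2.06% and Ptprc 1.33%. A Pecam1 count of 1 or 2 was present in 50.3% of members and an Lrat count of 1 or 2 in 41.3%, and 610 members (30.8%) had neither. The tests were repeated on those 610 members alone.

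Members held a median of 301 counts each, from 4 to 1109. By section, the median ran from 170 at 6 mo to 464 in section 1 at 14 d. Medians of the unmarked cells defined below ran from 264 to 726, so members were shallower than the unmarked cells of their section in every section. A pair of comparators was used throughout. Adgre1 cells, 4627 in all, had an Adgre1 count of at least 2 and the same limits on Pecam1 and Lrat. Members had lower median counts than these except in section 2 of 72 h (290 against 286) and section 1 of 14 d (464 against 447.5). Unmarked cells, 84495 in all, had no Ptprc or Adgre1 count and counts below 3 of Pecam1, Lrat and Sox9, a gene of bile duct cells.

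The limit of 2 Ptprc counts decided many members. Among them, 692 had a Ptprc count of exactly 2, 403 had 3 and 883 had 4 or more. Just outside the limit lay 2370 cells with a Ptprc count of 1, no Adgre1 and the same limits on the other genes. Of these, 44.1% had a Lyz2 count, against 55.5% of members with a Ptprc count of 2, 59.1% of those with 3 and 58.6% of those with 4 or more. On the Adgre1 side, 719 cells met every limit except for an Adgre1 count of 1, and 87.8% of them had a Lyz2 count.

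Where the positions of single transcripts were at hand, in 12 of the 13 sections, they were compared with the cell outlines. Between 84.0% and 95.1% of all Ptprc transcripts of a section lay inside outlines, as did 60.2% to 79.8% of transcripts of all genes. Within 50 coordinate units of a member's centre, an Adgre1 transcript was found for 1.02% to 6.59% of members, against 0.327% to 0.981% of unmarked cells and 92.2% to 98.3% of Adgre1 cells. No source used here states the length of a coordinate unit.

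Members were most frequent at 14 d and least frequent at 72 h. At 0 h, 153 and 197 members made up 13.7 and 16.7 of every 1000 cells. At 24 h the 2 pieces held 72 and 38 members, together 9.95 per 1000 cells with an exact 95% binomial interval of 8.18 to 12.0. At 48 h, 88 and 92 members gave 9.09 and 9.59 per 1000 cells. Every section of 24 h and 48 h thus lay below both sections of 0 h. At 72 h, 30 and 100 members gave 6.26 and 8.81 per 1000 cells. At 14 d, 282, 349 and 362 members gave 24.6, 22.3 and 22.9 per 1000 cells. The single sections of 3 mo and 6 mo held 89 and 126 members, or 10.96 per 1000 cells (8.81 to 13.5) and 11.8 per 1000 cells (9.80 to 14.0). These intervals cover counting error only.

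Over the 4 times with numbered sections, the mean was 15.2 ± 2.11 members per 1000 cells at 0 h (SD, n = 2), 9.34 ± 0.353 at 48 h (n = 2), 7.54 ± 1.81 at 72 h (n = 2) and 23.3 ± 1.17 at 14 d (n = 3). The differences among times were larger than the spread between sections (exact permutation test of the F statistic over 9 sections, p = 0.000794, the smallest that the 7560 assignments allow, and 0.00195 after Benjamini-Hochberg adjustment over 6 permutation tests). The 3 sections of 14 d lay above every other section and the 72 h sections below both 0 h sections. On each slide that held both times, 0 h lay above 72 h, with 13.7 against 6.26 on slide 1 and 16.7 against 8.81 on slide 2.

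How far 14 d stood above 0 h depended on how members were counted. Cells at 14 d also held more counts, with section medians of 470 to 632 against 314 and 317 at 0 h. A deeper cell reaches a Ptprc count of 2 more readily, but stays within the limits on Adgre1, Pecam1 and Lrat less readily. Every cell was therefore thinned to 100 counts, which left out 2.86% to 17.0% of cells per section. In that count 14 d had 21.9 to 24.6 members per 1000 cells and 0 h had 9.03 and 13.1 (exact permutation p = 0.00238). The ratio of the 14 d mean to the 0 h mean was 1.53 with full counts and rose to 2.09 in the thinned count. In the same count, 48 h had 7.75 and 7.09 and 72 h had 9.23 and 8.21, so that section 1 of 72 h no longer lay below both 0 h sections. Counting only members without any Pecam1 or Lrat, 14 d had 6.32 to 7.06 per 1000 cells and overlapped 0 h with 5.73 and 6.69, while 48 h and 72 h stayed at 1.25 to 2.64 (exact permutation p = 0.0143). Per 1000000 counts in cells, the mean was 41.8 members at 14 d and 44.7 at 0 h. The drop from 0 h to 48 h kept its direction in each of these counts.

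**Figure D1:**
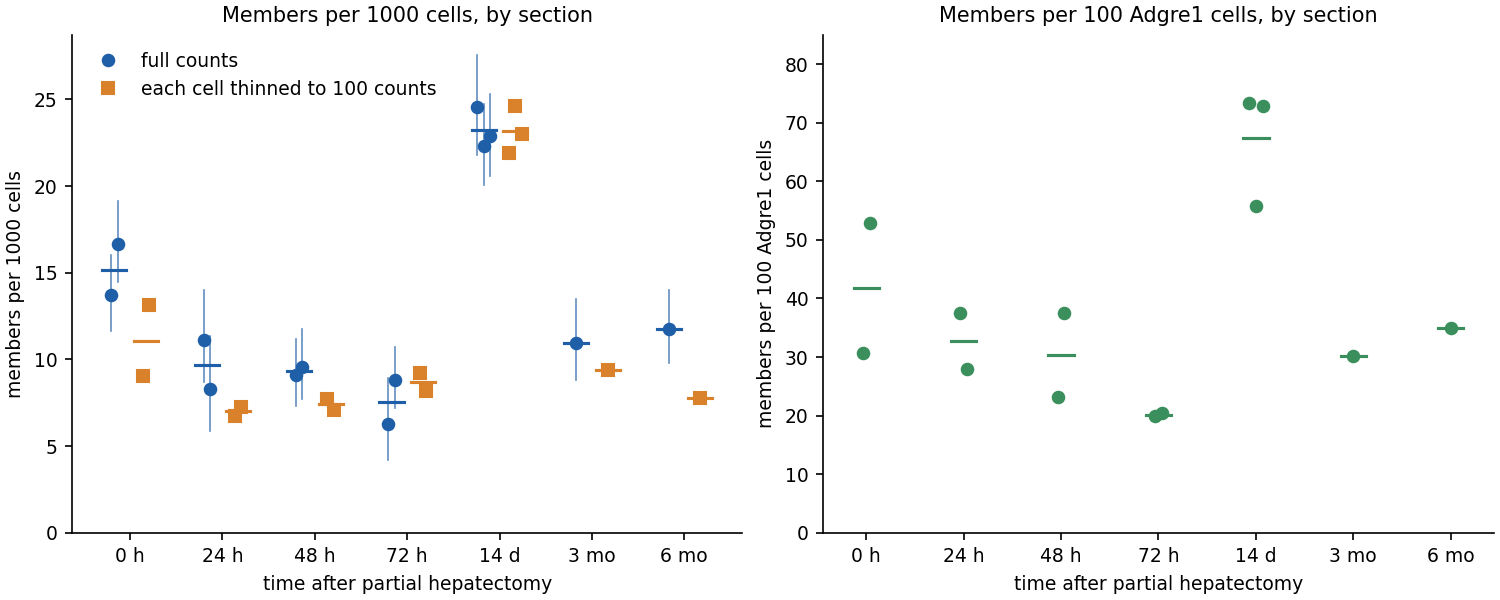
Left, members per 1000 cells in each section against time after partial hepatectomy, with full counts (circles, vertical lines are exact 95% binomial intervals) and with each cell thinned to 100 counts (squares). Right, members per 100 Adgre1 cells. Horizontal lines are means over sections. The 3 sections of 14 d sit between 22.3 and 24.6 members per 1000 cells, above all others.

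Relative to Adgre1 cells the order was similar. Adgre1 cells made up 25.5 to 44.7 of every 1000 cells over the 13 sections, with a mean of 38.1 at 0 h and 34.9 at 14 d. Members per 100 Adgre1 cells were 30.7 and 53.0 at 0 h, 37.5 and 27.9 in the pieces of 24 h, 23.2 and 37.6 at 48 h, and 19.9 and 20.4 at 72 h. They reached 73.4, 55.8 and 72.8 at 14 d, and were 30.2 at 3 mo and 34.9 at 6 mo. The 14 d sections again lay above all others, but the gap between the lowest of them and the higher 0 h section was small, and this ratio was not tested.

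Ptprc counts within members are fixed at 2 or more by the rule and are given as a description. The mean per member was 3.46 and 3.66 at 0 h, 5.28, 5.82 and 4.77 at 14 d, and 2.94 at 6 mo. The highest count in a single member was 38, in section 3 at 14 d. Members held 23.9% and 27.1% of all Ptprc counts of the 0 h sections, 7.56% and 13.4% at 72 h, and 14.4% to 19.1% at 14 d. Adgre1 cells held 15.1% to 31.0% over the 13 sections, and the rest lay in cells that the rule left out.

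Lyz2, which the rule did not use, split the members. Of the 1978, 839 had no Lyz2 count, 543 had 1 to 4 and 596 had 5 or more, with a maximum of 130 in section 1 at 72 h. Members with 5 or more held 66.9% to 97.6% of all Lyz2 counts of members in a section. Lyz2 was thus concentrated in a minority of members, which made up 9% to 39.3% of them by section.

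The share of members with any Lyz2 count was 43.1% and 46.2% at 0 h, 35.2% and 43.5% at 48 h, and 36.7% and 36.0% at 72 h. It was 67.0%, 68.8% and 66.3% at 14 d. The 14 d sections lay above every section of 0 h, 48 h and 72 h, and 48 h overlapped 0 h. The 24 h pieces together had 56.4% (exact 95% binomial interval 46.6 to 65.8), 3 mo had 52.8% (41.9 to 63.5) and 6 mo had 68.3% (59.4 to 76.3). These and the other binomial intervals cover counting error only. With 1 library each, the shares of 24 h, 3 mo and 6 mo were not tested against other times.

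Means were 44.7% ± 2.16 at 0 h (SD, n = 2), 39.4% ± 5.83 at 48 h (n = 2), 36.3% ± 0.471 at 72 h (n = 2) and 67.4% ± 1.27 at 14 d (n = 3). The differences among times were larger than the spread between sections (exact permutation test of the F statistic, p = 0.00476, adjusted p = 0.00714 over 6 tests). The call ended without any of the 14 d sections 1, 2 or 3 (exact permutation p = 0.0571 for each), and with only members without Pecam1 and Lrat counts (p = 0.125), where means were 43.7% at 0 h and 64.0% at 14 d.

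Free or neighbouring Lyz2 transcript can enter any outline, so the same share was taken in cells with no leukocyte gene. A Lyz2 count was present in 6.45% to 22.6% of unmarked cells by section, which held more counts per cell than members, and in 87.5% to 98.1% of Adgre1 cells. In unmarked cells the share was 11.8% and 11.3% at 0 h, 11.4% to 12.2% at 14 d, 18.1% at 3 mo and 22.6% at 6 mo. It was alike at 0 h and 14 d, where members differed, and highest at 6 mo. Unmarked cells were deeper at 14 d, with section medians of 532 to 726 counts against 346 and 352 at 0 h. Whether stray transcript added to the Lyz2 of members was not tested. Members lay above unmarked and below Adgre1 cells in each of the 13 sections.

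With members chosen on full counts and each cell then thinned to 100 counts, the share with Lyz2 was 32.8% and 36.8% at 0 h, 27.5% and 34.9% at 48 h, 32.1% and 23.2% at 72 h, and 49.1%, 49.0% and 51.3% at 14 d (exact permutation p = 0.00476). The thinned share of unmarked cells was 6.76% and 6.61% at 0 h and 4.63% to 6.22% at 14 d. The 14 d sections lay above those of 0 h, 48 h and 72 h in this count too. It was added to the settings first planned, and its members were still chosen at unequal depth. With the rule itself applied to thinned counts, the share was 47.3% and 45.4% at 0 h. It was then 36.4% to 44.6% at 48 h and 72 h, and 61.1%, 59.9% and 58.3% at 14 d. The ratio of the 14 d mean to the 0 h mean was 1.29 there and 1.51 with full counts.

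**Figure D2:**
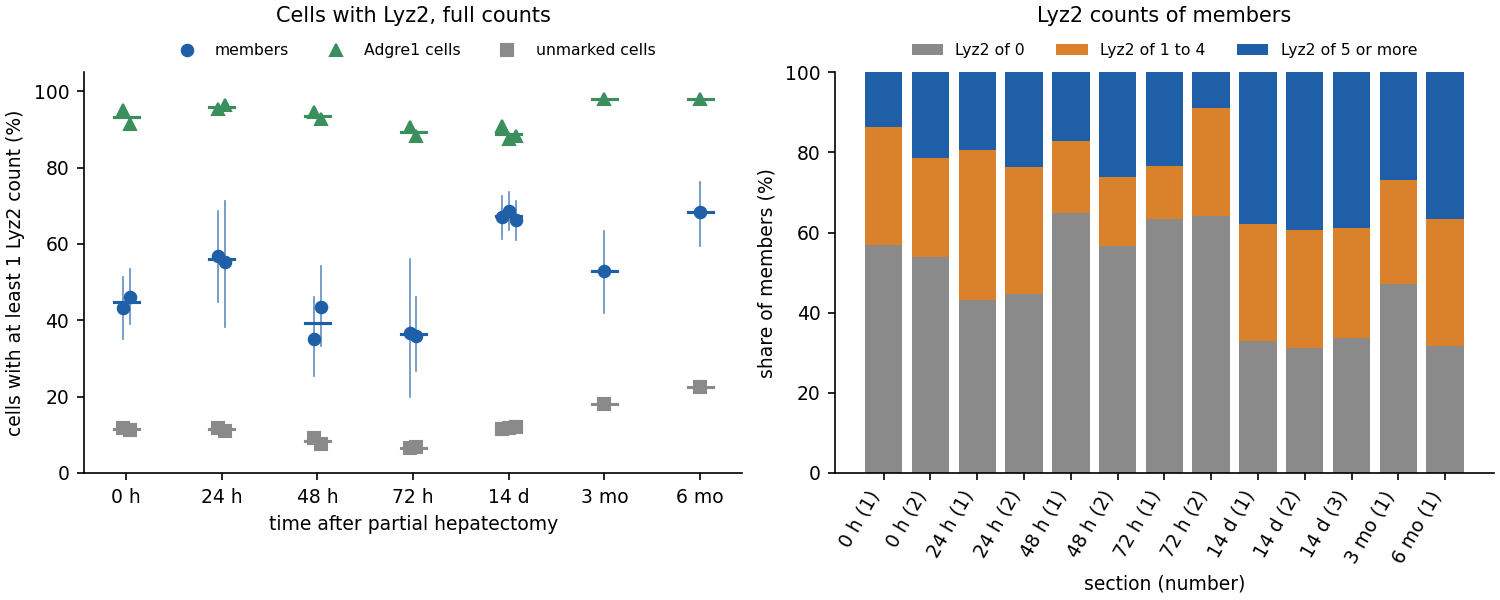
Left, share of cells with at least 1 Lyz2 count in members (circles, vertical lines are exact 95% binomial intervals), Adgre1 cells (triangles) and unmarked cells (squares) in each section, with horizontal lines for the means over sections. Right, share of members with a Lyz2 count of 0, 1 to 4, and 5 or more in each section. In the 3 sections of 14 d 66.3% to 68.8% of members held Lyz2, and in all 13 sections the share lay between those of the other classes.

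The amount of Lyz2 was less even than the share. Lyz2 averaged 1.87 and 4.44 counts per member at 0 h, 3.06 and 4.09 at 48 h, 8.43 and 1.75 at 72 h, and 9.92, 10.8 and 8.58 at 14 d. Section 1 of 72 h, with 30 members, owed its high mean to few of them, since 7 members held 97.6% of its Lyz2 counts. The mean count did not pass the test over times (exact permutation p = 0.0944).

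Scaled to the counts in members, Lyz2 was 9307 and 24611 CPM (counts per 1000000, by TMM-scaled totals) at 0 h and 19420, 20725 and 22847 at 14 d, so that the 14 d libraries lay inside the range of 0 h. The log2 difference of 14 d over 0 h was 0.31 ± 0.70 (edgeR quasi-likelihood test, Benjamini-Hochberg adjusted p = 0.767). At 6 mo, Lyz2 stood at 45496 CPM, above every other library, with a log2 difference of 1.42 ± 0.91 that did not pass (edgeR adjusted p = 0.435). Without section 1 or section 2 of 72 h it passed (1.31 with adjusted p = 0.0197, and 1.42 with 0.00722, by edgeR). At 72 h it was 27345 and 5478 CPM, with a log2 difference of -0.09 ± 0.78. Without section 1 of 72 h, that difference became -1.70 (edgeR adjusted p = 0.00609), so this 72 h section decided the call.

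Most members had no fellow member within 200 coordinate units. Counted along y and x, cells reached up to 17129 and 17127 coordinate units, and members occupied 5.22% to 21.1% of the tiles of 400 units a side that held cells. The median distance from a member to its nearest fellow member was 344 to 386 units at 14 d, 458 and 386 at 0 h, and 910 and 821 at 72 h, while any cell had another within a median of 85.4 to 98.7 units. With members within 200 units joined, 1629 of 1978 (82.4%) stood alone, from 78.4% at 14 d to 97.8% at 3 mo. These distances and shares depend on how frequent members were and were not set against random placement. They therefore do not show that members kept apart.

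No group held more than 5 members. The 5 groups of that size lay at y 6428 and x 9492 in section 2 of 0 h, y 5215 and x 8984 in section 2 of 48 h, y 15926 and x 10925 in section 2 of 14 d, y 5612 and x 13423 in section 3 of 14 d, and y 3894 and x 9507 at 6 mo. In the group of section 2 of 14 d, 5 of 5 members had Lyz2 and the cells around it scored as central (zone score 2.42). The other 4 groups lay among cells of portal score, from -1.63 to -1.09, and had Lyz2 in 2, 3, 1 and 2 of their 5 members. Together the groups held 25 members, or 1.26%.

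**Figure D3:**
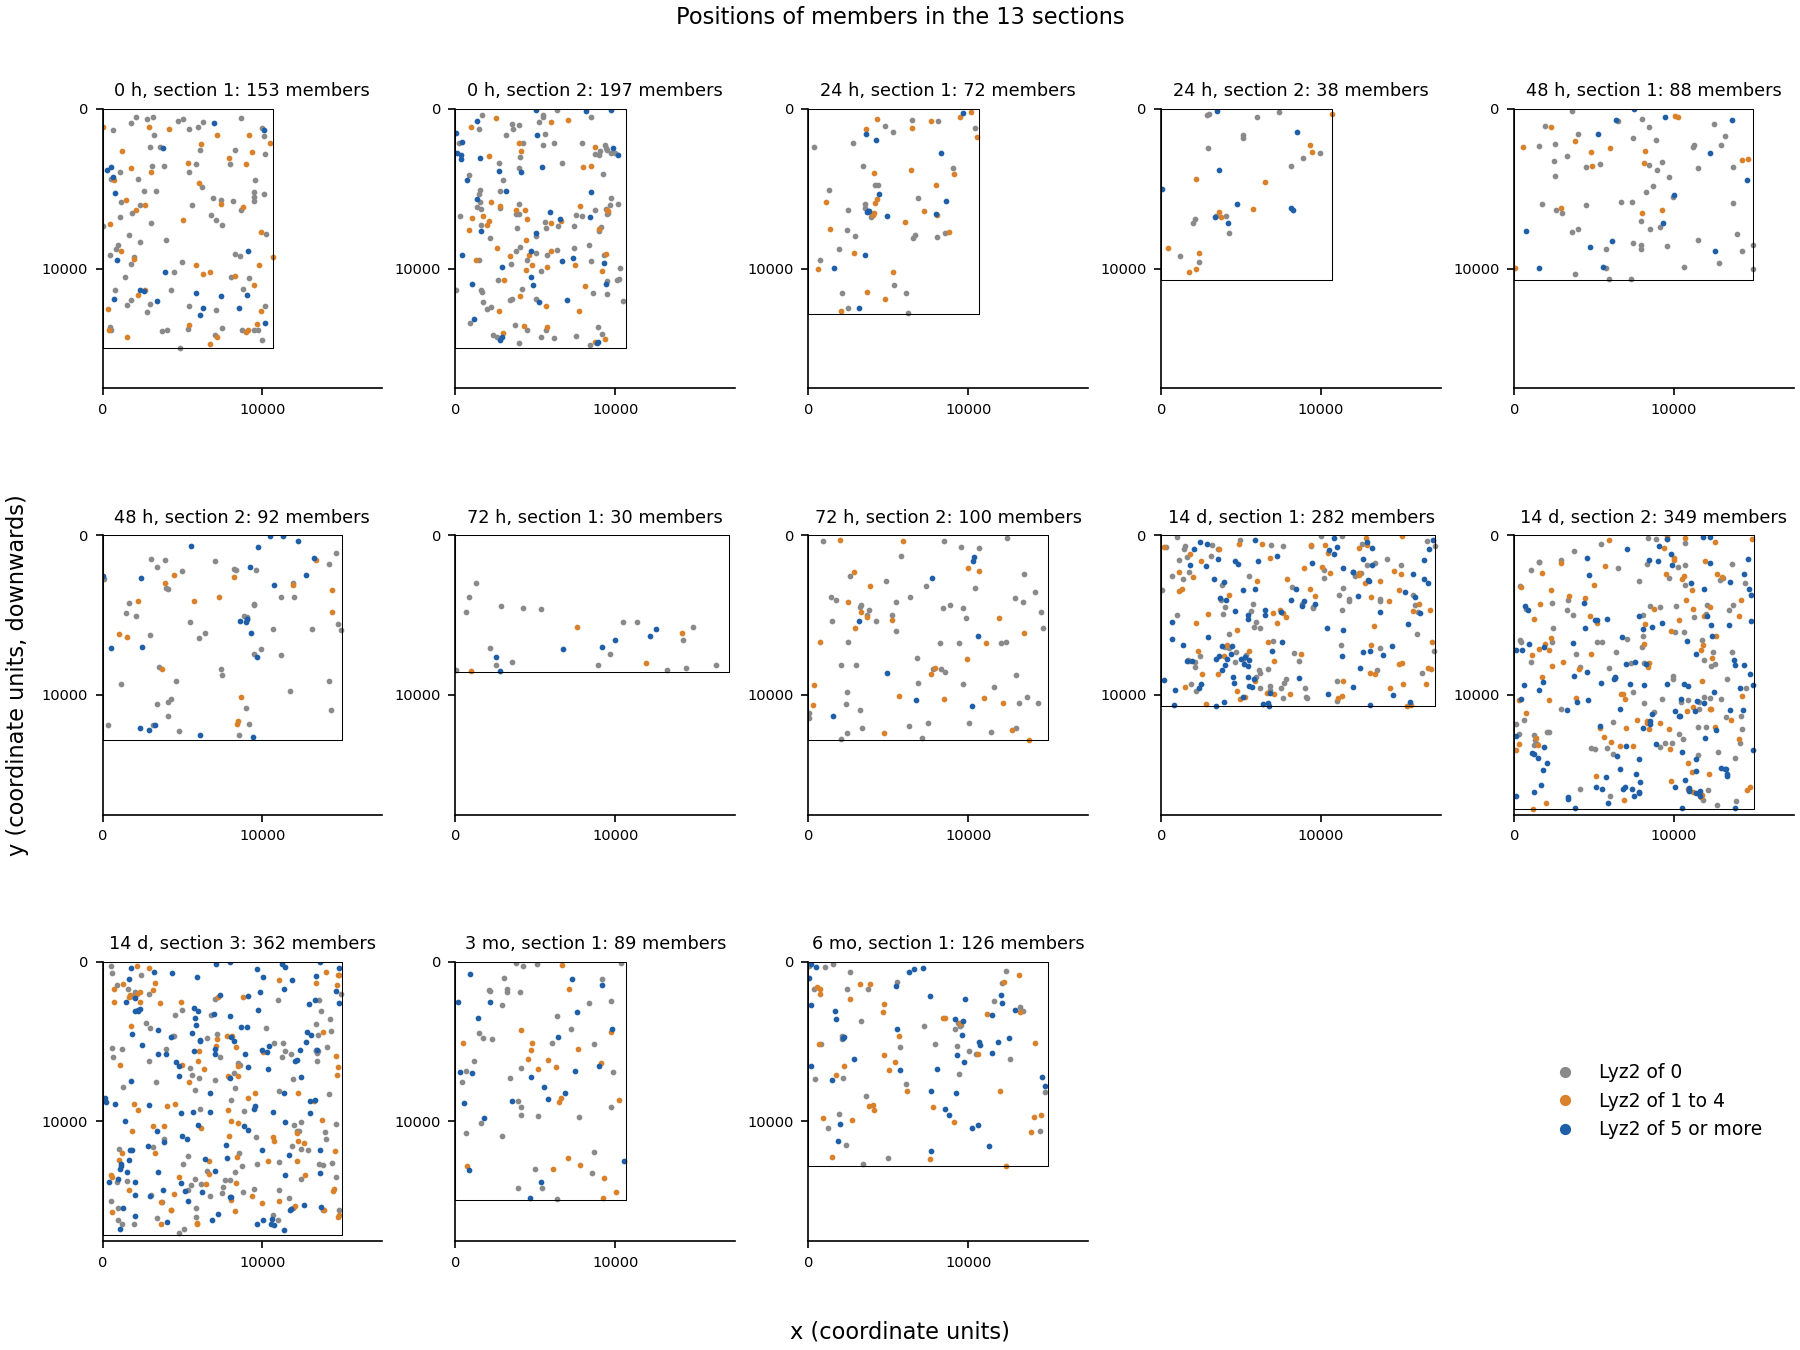
Positions of all members in the 13 sections, x across and y downwards in coordinate units, coloured by Lyz2 count; the thin box runs from 0 to the largest x and y of any cell. The sections of 14 d hold 282 to 362 members each, and section 1 of 72 h holds 30.

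Crowding of members was weak. Among the 20 nearest cells of members, member neighbours numbered 41 and 90 at 0 h, against 41.9 and 65.7 at the share of the whole section. They numbered 177, 215 and 205 at 14 d, against 139, 156 and 166, and 68 at 6 mo, against 29.6. The log2 ratio, with 0.5 added to both numbers, averaged 0.20 ± 1.14 (SD, n = 12 libraries) and was above 0 in 9 of 12 (sign-flip permutation p = 0.589, adjusted p = 0.589 over 6 tests).

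Section 1 of 72 h had no member neighbour where 3.75 were due, and decided that mean. Without it the mean was 0.50 (sign-flip permutation p = 0.00586). As a difference in percentage points, added after that section was seen, members had 0.542 more member neighbours per 100 neighbours than the section share (SD 0.661, above 0 in 9 of 12 libraries, permutation p = 0.0190).

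Members lay nearer the portal than the central side of the lobule. The liver lobule is a unit in which blood runs from the portal tract to the central vein, and hepatocytes along the way differ in their enzymes. Each cell received a zone score from its 20 nearest cells that were not members, the mean z-score of 9 central genes such as Glul, Cyp2e1 and Cyp1a2 minus that of 6 portal genes such as Cps1, Pck1 and Ass1. A score below 0 means a portal setting.

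The score around members was lower than around other cells in 12 of 12 libraries, by a mean of -0.32 (SD 0.17, n = 12 libraries; sign-flip permutation p = 0.000488, the smallest that it allows, adjusted p = 0.00195). The difference was -0.15 and -0.30 at 0 h, -0.50 at 24 h, -0.14 and -0.59 at 48 h, and -0.59 and -0.28 at 72 h. It was -0.36, -0.14 and -0.27 at 14 d, -0.15 at 3 mo and -0.33 at 6 mo, so that the ranges of the times overlapped. Split into tertiles of the section's score, 37.7% of members lay in the portal tertile and 27.1% in the central one. The portal share ran from 33.7% at 3 mo to 47.3% at 24 h.

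Adgre1 cells lay on the portal side of the cells of neither class in 10 of 12 libraries, but by -0.00, 0.08 and 0.31 at 14 d, that is, not on the portal side in 2 of its 3 sections. Set against Adgre1 cells, a comparison added after the data were seen, members differed by -0.12 (SD 0.26), with 8 of 12 libraries below 0 (sign-flip permutation p = 0.141). At 0 h the sign was the opposite, with 0.25 and 0.23. At 14 d members were the more portal, with -0.36, -0.22 and -0.56.

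Lyz2 did not set the position of members apart. The score around members with Lyz2 minus that around members without it averaged 0.09 (SD 0.43) and was above 0 in 8 of 12 libraries (sign-flip permutation p = 0.484, adjusted p = 0.581). Values ran from -0.78 at 3 mo to 0.87 in section 1 of 72 h. At 14 d the difference was 0.19, 0.60 and 0.16, towards the central side in each section. There, 27.0% to 34.6% of members with Lyz2 and 18.3% to 23.0% of those without it lay in the central tertile.

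Cells with Sox9 were more frequent around members. Sox9 is a transcription factor of bile duct cells, which line the ducts of the portal tract, and a cell was counted with a Sox9 count of at least 3. Of the 20 nearest cells of members, 1.67% and 1.17% were Sox9 cells at 0 h, against 0.634% and 0.467% around other cells. At 14 d the shares were 4.24%, 4.58% and 4.05% around members and 2.91%, 3.23% and 2.32% around other cells. At 3 mo the order was the opposite, with 1.18% around members and 1.47% around others, and at 6 mo it was 5.04% against 2.40%.

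The log2 ratio averaged 0.74 (SD 0.51, n = 12 libraries) and was above 0 in 11 of 12 libraries, all except 3 mo (sign-flip permutation p = 0.000977, adjusted p = 0.00195). Against Adgre1 cells, in a comparison added after the data were seen, the ratio was above 0 in 12 of 12 libraries with a mean of 1.08 (SD 0.76, p = 0.000488 by sign-flip permutation, the smallest that it allows). Among members without Pecam1 and Lrat counts the mean ratio was 0.44 and the call ended (permutation p = 0.202). Of the members themselves, 68 (3.44%) had a Sox9 count of 3 or more.

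The other cell classes were counted in the same way. Cells with an Adgre1 count of at least 2 made up 3.30%, 4.11% and 3.19% of neighbours of members at 14 d and 3.34%, 3.98% and 3.17% of neighbours of other cells. In the 24 h pieces the shares were 2.43% and 1.97% around members and 2.98% and 2.93% around others, and at 3 mo 4.38% and 3.64%. Cells with an Lrat count of at least 3, the marker of stellate cells, ran from 3.81% to 26.5% of neighbours of members over the 13 sections and from 4.34% to 26.1% around others. They made up 4.38% and 5.92% around members in the 24 h pieces, against 6.02% and 6.30%, and 10.7%, 11.5% and 9.17% at 14 d, against 11.3%, 12.1% and 9.74%. Cells with a Pecam1 count of at least 3 made up 10.9% and 8.17% around members at 0 h, and 10.9% and 6.87% around others. In the 24 h pieces they made up 16.2% and 18.7% around members, and 14.2% and 14.1% around others. These shares were not tested.

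**Figure D4:**
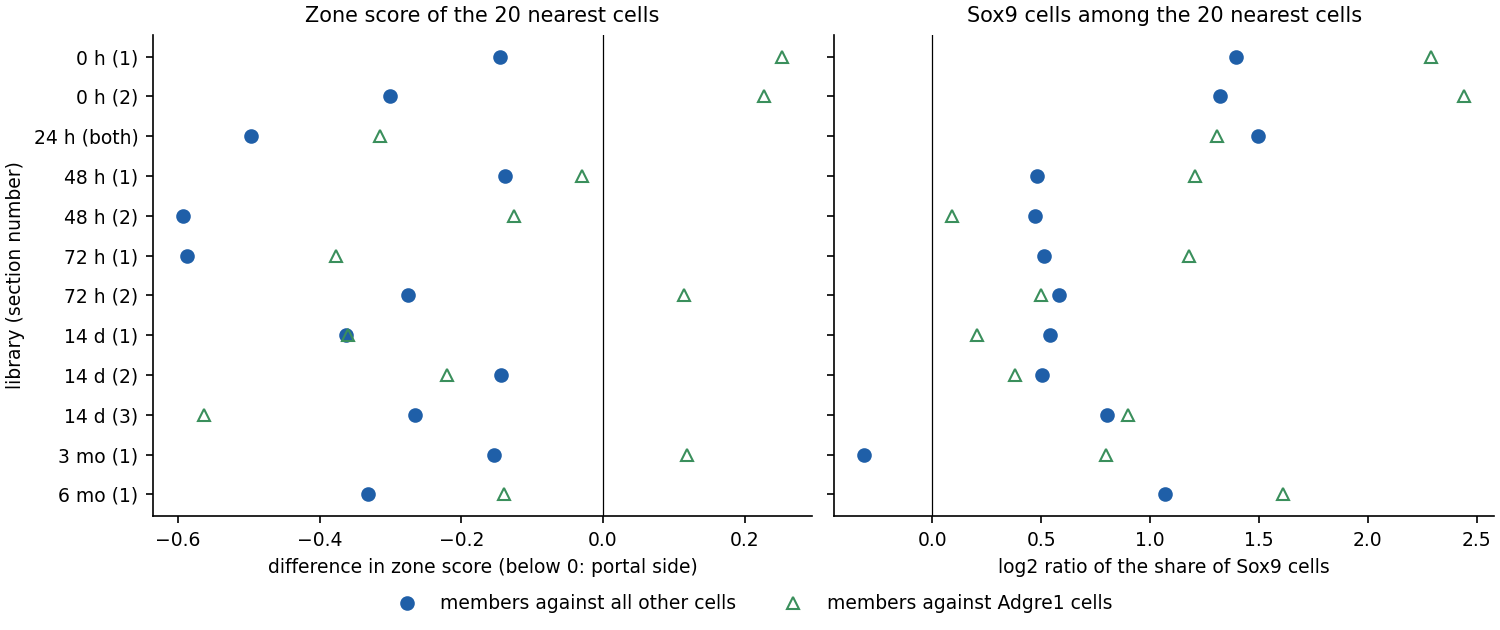
Left, zone score of the 20 nearest cells around members minus that around all other cells (circles) or around Adgre1 cells (triangles), for the 12 libraries; values below 0 are on the portal side. Right, log2 ratio of the share of Sox9 cells among the 20 nearest cells. All 12 circles on the left lie below 0 and 11 of 12 on the right lie above 0.

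What the outlines of members held besides the rule's genes was compared with the other classes in the same libraries. In a fit with the library as a block, 91 genes outside the rules of the classes were tested. Against unmarked cells, 60 genes (65.9%) differed by edgeR's quasi-likelihood test with Benjamini-Hochberg adjusted p under 0.05, 20 of them (22%) higher in members and 40 (44%) lower. Total-count scaling gave 41 higher and 19 lower, and moved the median gene up by 0.37 on the log2 scale. Of the 60, 28 were called in the same direction in all 19 alternatives, and the genes named here are among those unless said otherwise.

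Lyz2 had the largest rise of the 60. It was at 5233 to 41529 CPM in members and 229 to 4301 CPM in unmarked cells, and it was higher in members in 12 of 12 libraries (log2 difference 4.06 ± 0.26, edgeR adjusted p = 1.31e-12). The groups did not overlap.

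Cldn7, a claudin of the tight junctions of bile duct epithelium, followed. It was at 0 to 561 CPM in members and 9.64 to 50.3 CPM in unmarked cells. It was higher in 11 of 12 libraries (log2 difference 2.85 ± 0.32, edgeR adjusted p = 2.94e-09). Outside 14 d, each member library held only 0 to 6 Cldn7 counts. Sox9 was 1.34 ± 0.20 higher, but the limit on Sox9 in the rule of unmarked cells bears on that difference.

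Wnt4, a secreted Wnt ligand, was at a median of 145 CPM in members and 33.1 CPM in unmarked cells. It was higher in 11 of 12 libraries (log2 difference 2.19 ± 0.25, edgeR adjusted p = 5.25e-09). Outside 14 d, each member library held only 1 to 12 Wnt4 counts. Adgre1 cells had a Wnt4 median of 158 CPM, so this level was not particular to members. Ccnd1, the cyclin of G1 phase, was at 4447 to 24030 CPM in members and 1254 to 8233 CPM in unmarked cells, higher in 12 of 12 (log2 difference 1.55 ± 0.10, edgeR adjusted p = 1.33e-14). Gpc1, a proteoglycan that carries heparan sulfate chains, was higher by 1.30 ± 0.19. Sulf2, which trims sulfate from such chains, was higher by 1.47 ± 0.23 and was singled out after its values were seen. Outside 14 d, each member library held only 1 to 15 Sulf2 counts. Epas1, an oxygen-sensitive transcription factor, was higher by 0.73 ± 0.07. Its median was 7174 CPM in members and 6861 CPM in Adgre1 cells, so this level was not particular to members either.

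The hepatocyte genes were lower. Of 9 central genes 8 fell below the level of unmarked cells and none rose above it (median log2 difference -0.81, against -0.14 over the 91 genes), and with total-count scaling 6 were lower and none higher. Cyp2e1, an alcohol-oxidising cytochrome of central hepatocytes, was lower by 1.04 ± 0.09 on the log2 scale (edgeR adjusted p = 1.07e-11, lower in 12 of 12 libraries). Glul, glutamine synthetase of the innermost central cells, differed by -1.22 ± 0.20 and Cyp7a1, which starts the making of bile acids from cholesterol, by -2.52 ± 0.16. Of 6 portal genes 5 were lower with a median of -0.32, but with total-count scaling 1 was lower and the median was 0.04, so that their direction depended on the scaling. Slc16a10, an amino acid transporter, had 0 counts in members, 11 in Adgre1 cells and 379 in unmarked cells. With 3 counts over all members as the floor, it was 2.17-fold lower in members than in unmarked cells. It reached 10 counts per library only in unmarked cells, where it was high, so the fall called by edgeR is given as a description. That call ended in 3 alternatives, DESeq2, thinning and members without Pecam1 and Lrat.

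Against Adgre1 cells the differences were fewer. Of the 91 genes, 19 (20.9%) were called, 4 higher in members (4.4%) and 15 lower (16.5%) by edgeR at adjusted p under 0.05. Total-count scaling gave 7 higher and 6 lower with the median gene 0.12 higher on the log2 scale, DESeq2 gave 8 and 6 with a shift of 0.11, and thinning to 100 counts gave 3 and 6. C6, Lrp5, Lyz2, Sulf2 and Wnt1 were called in the same direction in every alternative.

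Lyz2 was at 5233 to 41529 CPM in members and at 24183 to 77378 CPM in Adgre1 cells, and lower in members in 12 of 12 libraries (log2 difference -1.31 ± 0.23, edgeR adjusted p = 0.000156). C6, a complement component, was at 1973 to 8497 CPM in members and 4996 to 23281 in Adgre1 cells (log2 difference -1.58 ± 0.13, edgeR adjusted p = 1.98e-11). Wnt1, a Wnt ligand, was at a median of 98.1 CPM in members and 360 CPM in Adgre1 cells. The difference was -2.06 ± 0.22 (edgeR adjusted p = 5.19e-09), with only 0 to 7 Wnt1 counts in each member library outside 14 d. Lrp5, a co-receptor of Wnt, was lower too (-0.84 ± 0.08). Each of these was lower in members in 12 of 12 libraries.

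On the other side, Gpc1 was higher in members than in Adgre1 cells by 0.82 ± 0.21, a call that ended with thinning and with members without Pecam1 and Lrat. Sulf2, singled out after its values were seen, was higher by 0.82 ± 0.24. Cldn7 was higher by 0.90 ± 0.32 (edgeR adjusted p = 0.0372), and higher in 11 of 12 libraries, but 5 of 19 alternatives ended this call, those without section 1 of 0 h, section 1 of 72 h, section 2 or 3 of 14 d, or the 6 mo section (0.84 to 0.95). Sox9, not counted because it enters the rule of unmarked cells in the same fit, was higher by 0.70 ± 0.20 in members, in 11 of 12 libraries. Summed over both biliary genes, members held 323 to 2622 counts per 1000000 by section and unmarked cells 164 to 518. The Ccnd1 difference between the classes was 0.19 ± 0.10 (edgeR adjusted p = 0.201), and whether it passed depended on the scaling. It passed with total-count scaling (0.30, edgeR adjusted p = 0.0263), with DESeq2 (0.30, adjusted p = 0.0126), and with section 2 of 0 h (0.26) or of 48 h (0.33) left out. Cyp2e1 was close to 0 (0.00 ± 0.09).

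The question of change over time was then put to the members alone, with the counts of all members of a library summed. Nearly all genes called at 48 h, 72 h and 14 d changed in the same direction in unmarked cells, as given further on with the limits of that count. The fit took 12 libraries and 75 genes outside the rule, and 24 h, 3 mo and 6 mo had 1 library each, which is assumed to vary like the others. With total-count scaling the median gene stood higher on the log2 scale, by 0.20 for 24 h, 0.41 for 48 h, 0.28 for 72 h, 0.32 for 14 d and 0.19 for 3 mo. DESeq2 moved it by 0.15 at 72 h, 0.14 at 14 d and -0.14 at 3 mo.

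At 24 h, 11 of 75 genes (14.7%) differed from 0 h by edgeR at adjusted p under 0.05, 6 higher (8%) and 5 lower (6.67%), and DESeq2 gave 4 higher and 5 lower. At 48 h 17 genes (22.7%) differed, 8 higher (10.7%) and 9 lower (12%), or 10 and 4 with total-count scaling. At 72 h 12 genes (16%) differed, 6 higher (8%) and 6 lower (8%), or 8 and 2 with total-count scaling and 6 and 3 with DESeq2. At 14 d 23 genes (30.7%) differed, 12 higher (16%) and 11 lower (14.7%), or 15 and 7 with total-count scaling. The 12 include Cldn7 and Hif1a, which reached the minimum count for testing only in 14 d libraries. At 3 mo edgeR called 0 genes (0%), with 5 rises and 5 falls at an unadjusted p below 0.05, and 1 gene was called with DESeq2. At 6 mo 3 genes (4%) were called. The 6 mo calls were 2 higher (2.67%) and 1 lower (1.33%), or 2 and 0 with total-count scaling and 2 and 2 with DESeq2.

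Single libraries moved several of these counts. The 48 h count was 11 without its section 1 and 6 without its section 2. The 14 d count was 13 without section 2 of 0 h. At 3 mo, 12 genes were called without section 1 of 0 h, and 1 gene when section 3 of 14 d was left out. The 6 mo count was 5 to 8 without section 2 of 0 h, piece 1 of 24 h, either section of 72 h, section 1 of 14 d or the 3 mo section.

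Ccnd1, the G1 cyclin, rose in members in the first 3 days. It was at 6378 and 4725 CPM at 0 h, 20269 at 24 h, 17291 and 15605 at 48 h, and 23130 and 12740 at 72 h. All of the libraries from 24 h to 72 h lay above both 0 h libraries. The log2 change was 1.87 ± 0.36 at 24 h, 1.57 ± 0.31 at 48 h and 1.68 ± 0.32 at 72 h (edgeR adjusted p of 0.000183, 0.000244 and 0.000188). At 14 d Ccnd1 was at 8732, 7567 and 8587 CPM and the change of 0.58 ± 0.28 did not pass (edgeR adjusted p = 0.112). It passed in 4 alternatives, total-count scaling (0.88, edgeR adjusted p = 0.0487), DESeq2 (0.71, adjusted p = 0.0408), a Ptprc minimum of 3 (0.87, edgeR adjusted p = 0.0100) and members without Pecam1 and Lrat (0.94, edgeR adjusted p = 0.0434). It was higher again at 6 mo with 19548 CPM (1.82 ± 0.36, edgeR adjusted p = 0.000904), the call at 6 mo that every alternative kept.

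Of the 4 cell cycle genes, 2 could be tested. Ccne1, the cyclin of the step from G1 to S phase, rested on 21 to 49 counts per time up to 72 h and rose by 1.77 ± 0.61 at 24 h, 1.66 ± 0.52 at 48 h and 1.65 ± 0.54 at 72 h. Its call ended in 14 of 20 alternatives at 24 h, 8 of them with 1 library or piece left out (0.48 to 1.82), and in 5 of 21 at each of 48 h and 72 h. Those included leaving out section 2 of 0 h (1.25 at both times), section 1 of 48 h (1.13), and section 1 or 2 of 72 h (1.54 and 1.75). Among members without Pecam1 and Lrat its 48 h change was -0.36 and did not pass.

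Among called genes, the largest rise at 24 h, 48 h and 72 h was that of Gstm3. It is one of the glutathione transferases of the mu class, enzymes that attach glutathione to reactive compounds. Gstm3 was at 1595 and 2278 CPM at 0 h, 23202 at 24 h, 57585 and 38742 at 48 h, 25075 and 16716 at 72 h, and 5837, 5596 and 5158 at 14 d. It was thus highest at 48 h and still above 0 h at 14 d, and was 3003 at 3 mo and 1231 at 6 mo. The log2 change was 3.58 ± 0.37, 4.63 ± 0.35, 3.42 ± 0.34 and 1.51 ± 0.30 from 24 h to 14 d (edgeR adjusted p of 6.87e-10, 8.00e-14, 2.10e-10 and 0.000209). Gstm2 rose too, with changes of 2.46 ± 0.34, 2.65 ± 0.30, 1.47 ± 0.31 and 2.18 ± 0.28 at those times. Gstm1 was called at 14 d, at 923, 778 and 478 CPM against 32.5 and 113 at 0 h (3.24 ± 0.67, edgeR adjusted p = 0.000325). Its 0 h values rest on 1 and 4 counts.

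Among central hepatocyte genes, falls outnumbered rises at 48 h, 72 h and 14 d. Of 8 tested, 2 rose and 2 fell at 24 h, 1 rose and 4 fell at 48 h, 4 fell at 72 h and 3 fell at 14 d, with medians of -0.20, -0.98, -1.06 and -0.12 against 0.00, -0.04, -0.25 and 0.04 over all 75 genes. With total-count scaling 2 fell at 24 h, 2 at 48 h, 1 at 72 h and 2 at 14 d, and the medians of 24 h and 14 d turned to 0.03 and 0.17. DESeq2 gave 2, 3, 2 and 3 falls. Cyp2e1 was at 307648 and 256826 CPM at 0 h, 61550 at 24 h, 65728 and 26506 at 48 h and 157476 and 156171 at 72 h. It was at 86246, 97927 and 100218 CPM at 14 d, 257685 at 3 mo and 196214 at 6 mo. Libraries of 24 h to 14 d lay below both 0 h libraries, and the change was -2.20 ± 0.53, -2.62 ± 0.41, -0.85 ± 0.39 and -1.57 ± 0.35, of which that of 72 h did not pass (edgeR adjusted p of 0.00285, 4.51e-06, 0.138 and 0.000565). The 72 h change passed with a Ptprc minimum of 3 (-1.10, edgeR adjusted p = 0.0403) and without section 1 or section 2 of 48 h (-0.86 and -0.76).

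Glul changed by -2.14 ± 0.42 at 48 h, -2.79 ± 0.46 at 72 h and -1.40 ± 0.34 at 14 d. The call of 48 h ended without section 2 of 48 h (-1.97), and that of 14 d without section 2 of 0 h (-0.41), with total-count scaling (-1.01) and with the 24 h pieces as 2 libraries (-1.50). Among members without Pecam1 and Lrat all 3 calls ended, with -1.83, -1.14 and -1.07. Oat, which breaks down ornithine beside Glul, was higher by 2.44 ± 0.43 at 24 h, but not past the test among members without Pecam1 and Lrat (1.83). At 72 h it changed by -1.31 ± 0.41, a call that 9 of 21 alternatives ended, leaving out section 1 of 0 h (-0.53), either section of 48 h (-1.33 and -1.23), section 1 of 72 h (-1.10) or section 2 of 14 d (-1.14) among them, and members without Pecam1 and Lrat (-0.05). Tbx3, a central transcription factor, had 1 count at 48 h and 15 at 0 h, a ratio of 0.121 (exact 95% binomial interval 0.00287 to 0.785, over pooled counts and for counting error only). Its edgeR call (adjusted p = 0.0449) ended in 11 of 21 alternatives, among them total-count scaling (adjusted p = 0.103), DESeq2 (0.133), the replicate block (0.0921) and leaving out either section of 0 h, either of 48 h or section 2 of 14 d (-6.83 to -2.88).

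Of the 6 portal genes, Hsd17b13, a protein of lipid droplets, rose at 72 h (1.15 ± 0.33), a call lost without either section of 0 h or 48 h or without section 1 of 72 h (0.47 to 1.32). At 14 d the urea cycle gene Ass1 rose (1.25 ± 0.29) in all 20 alternatives. The glutaminase Gls2 rose (0.80 ± 0.27) and the arginase Arg1 fell (-0.71 ± 0.26), with a list median of 0.43 against 0.04 over all genes. The Gls2 call ended without section 1 of 0 h, section 1 or 2 of 14 d, or 3 mo (0.66 to 0.80), with the replicate block (0.85) and among members without Pecam1 and Lrat (0.74). The Arg1 call ended without either 0 h section or section 2 or 3 of 14 d (-0.77 to -0.59), with total-count scaling (-0.39), DESeq2 (-0.58) and the replicate block (-0.59). C8b, of the terminal complement complex, fell at each time from 24 h to 14 d, with changes of -1.29 ± 0.39, -0.99 ± 0.30, -1.18 ± 0.31 and -0.89 ± 0.27. Each of these calls ended without section 2 of 0 h (-0.79, -0.48, -0.67 and -0.39), that of 48 h also without either of its own sections (-1.11 and -1.08) and that of 72 h without its section 2 (-1.12). Total-count scaling ended the C8b calls of 48 h and 14 d (-0.53 at both), the slide as a block that of 48 h (-0.74), and members without Pecam1 and Lrat those of 24 h and 72 h (-1.37 and -0.80).

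Both biliary genes stood higher in members at 14 d than at 0 h, and their levels were higher at 14 d in Adgre1 cells too. Sox9 was at 618 and 422 CPM at 0 h and at 1805, 1363 and 1560 CPM at 14 d (log2 change 1.60 ± 0.40, edgeR adjusted p = 0.00169). Cldn7 was at 130 and 0 CPM at 0 h, from 4 and 0 counts, and at 396, 480 and 419 at 14 d (2.79 ± 0.73, edgeR adjusted p = 0.00290). Cldn7 reached the minimum count for testing only in 14 d libraries, where it was high, so its rise is given as a description. In both genes every 14 d library lay above the 0 h libraries, and both calls ended without section 2 of 0 h (1.35 with adjusted p = 0.0579 for Sox9 and 1.72 with 0.107 for Cldn7, by edgeR). The Cldn7 call ended also among members without Pecam1 and Lrat, with a larger value (3.39). At 6 mo, Sox9 stood at 2757 CPM, the highest of the 12 libraries (2.41 ± 0.50, edgeR adjusted p = 0.000912). That call ended among members without Pecam1 and Lrat, though with a larger value (4.23). In Adgre1 cells, scaled in the fit of the classes, Sox9 was at 289 and 290 CPM at 0 h. It was there at 1126, 1018 and 1242 CPM at 14 d and at 944 at 6 mo. Cldn7 in Adgre1 cells was at 26.3 and 27.6 CPM at 0 h, 320, 224 and 219 at 14 d, and 43.6 at 6 mo. Change over time in Adgre1 cells was not tested.

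The other rises of 14 d included Sulf2 (1.99 ± 0.61), lost without section 2 of 0 h (1.38) and among members without Pecam1 and Lrat (2.10), and the Wnt receptor Fzd1 (1.18 ± 0.41), lost without either 0 h section or section 1 or 2 of 14 d (0.97 to 1.29). The Fzd1 call was lost too with total-count scaling (1.51), DESeq2 (1.32), the replicate block (1.24) and members without Pecam1 and Lrat (0.77). Hif1a, a transcription factor of the response to low oxygen, had 75 counts at 14 d and 0 at 0 h, at least 4.57-fold higher with 3 counts in the whole 0 h group as the floor. Hif1a reached the minimum count for testing only in 14 d libraries, where it was high, so the rise called by edgeR is given as a description. Its call ended without section 2 of 0 h. Falls that all 20 alternatives kept included C6 (-1.69 ± 0.26), Cyp1a2, a drug-metabolising cytochrome (-1.68 ± 0.27), and Znrf3, a ligase that removes Wnt receptors (-1.39 ± 0.33). Of 9 Wnt ligands tested, Wnt10a fell at 48 h (-1.79 ± 0.58), a call lost in 8 alternatives, among them total-count scaling (-1.37) and leaving out section 2 of 0 h, 48 h or 14 d (-1.71 to -1.17), and no other was called at any time. Of 6 frizzled receptors, Fzd1 at 14 d was the only call.

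Members and unmarked cells of the same sections were then set side by side, a comparison added after the data were seen. Both series of changes share their sections. Of 17 genes called in members at 48 h, 16 changed in the same direction in unmarked cells. At 72 h it was 12 of 12 genes and at 14 d 23 of 23. Of the genes called in members at these times, 10, 5 and 19 were called in unmarked cells too. The shares over all 75 genes are not given here, so these counts do not show that called genes agreed more than others. Gstm3 changed by 4.63 in members and 4.33 in unmarked cells at 48 h, Ccnd1 by 1.57 and 2.35, and Cyp2e1 by -2.62 and -2.53. At 14 d, Sox9 changed by 1.60 in members and 0.85 in unmarked cells and Cldn7 by 2.79 and 1.72. The rule of unmarked cells limits Sox9, which bears on its change in those cells. Lyz2 changed by 0.31 and -0.75 at 14 d. In Adgre1 cells, Gstm3 was at 1603 and 1091 CPM at 0 h and at 44728 and 37769 at 48 h. Ccnd1 in those cells was at 4782 and 4351 CPM at 0 h and at 14789 and 16982 at 48 h.

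The difference between the changes was tested as an interaction in edgeR. No gene of 75 passed at 24 h, 48 h, 14 d or 3 mo, where 6, 16, 11 and 5 genes had an unadjusted p under 0.05. At 14 d the differences were 0.59 ± 0.34 for Sox9, 1.05 ± 0.92 for Lyz2 and 0.29 ± 0.17 for Gstm3. The limit on Sox9 in the rule of unmarked cells bears on its differences at 14 d and at 6 mo. At 72 h 1 gene passed, the Wnt receptor Fzd5, and at 6 mo 5 passed, Sox9, Cldn2, Apof, Igf1 and Wnt10a. Sox9 at 6 mo changed by 2.41 in members and 0.53 in unmarked cells (difference 1.89 ± 0.44, edgeR adjusted p = 0.0206).

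**Figure D5:**
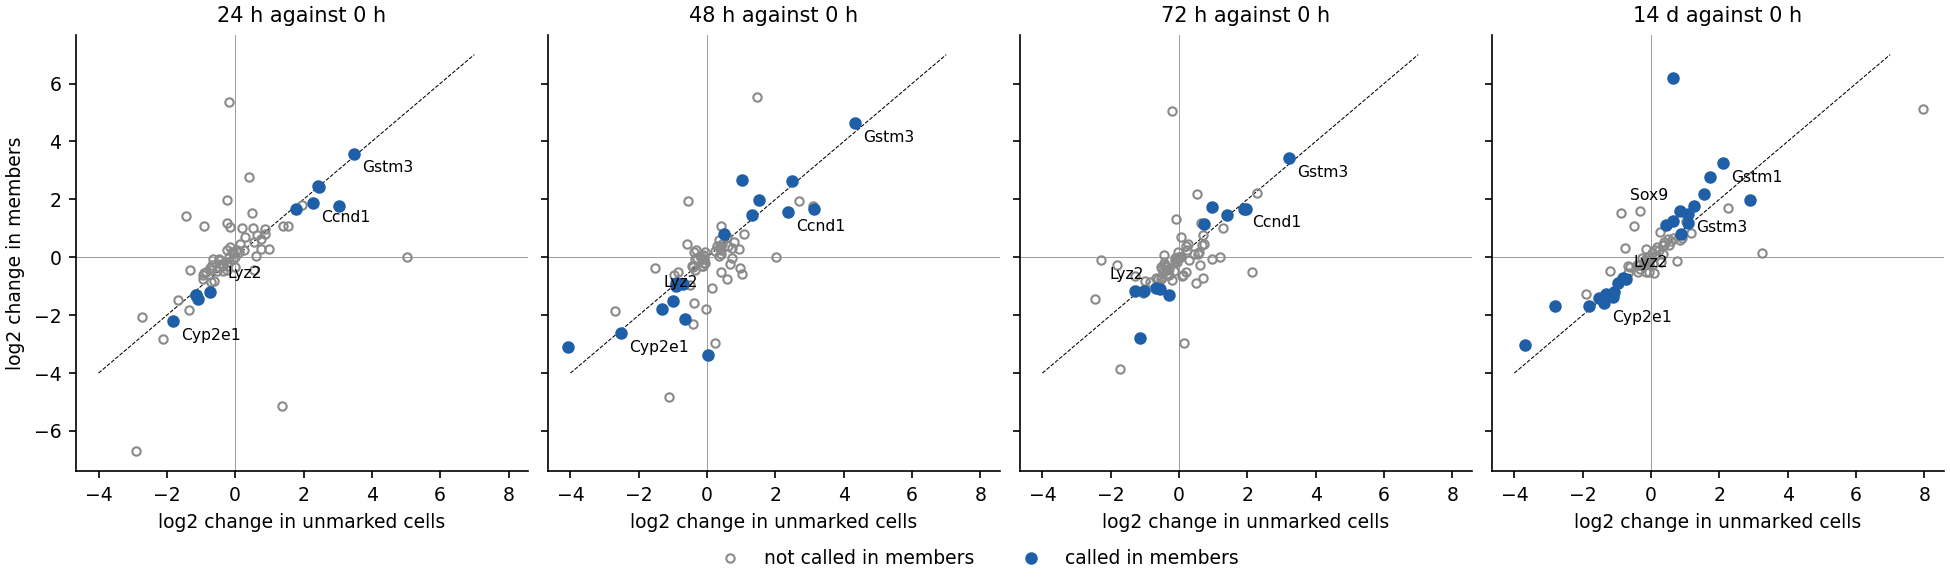
Log2 change from 0 h in members (vertical) against that in unmarked cells of the same sections (horizontal) for each gene outside the rule that was tested in both, at 24 h, 48 h, 72 h and 14 d. Filled points passed edgeR's test in members, and the dashed line marks equal change. Gstm3 at 48 h sits at 4.63 in members and 4.33 in unmarked cells.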

How the data were processed

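Whole-number counts of transcripts per gene and cell were deposited by section, with y and x in the cell names, beside lists of transcript positions (12 used here). The authors' counts were used unscaled. Decoding and segmentation are not given in the sources used here. A gene with no line was taken as 0. Cell names shared by sections numbered 37 pairs, 0 with equal counts. Doublets were not called. Members and gene lists were chosen with earlier results of these data known.

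Counts were summed per library and class and tested with edgeR 4.0.16 in R 4.3.3 (TMM, robust quasi-likelihood F test, Benjamini-Hochberg), keeping genes that reached 10 counts in 2 or more libraries. The error of a log2 change is its size over the square root of F. Levels in CPM are set against the same gene only. Zone scores used log2(share x 1000 + 1), z-scored within section. Permutation tests were 2-sided and ran over sections or libraries in Python 3.11.15 with scipy 1.17.1. Tested on simulated data, the time fit recovered 12 of 12 genes changed 4-fold and 5 of 12 changed 2-fold at 14 d, with 1 of 54 unchanged genes called. The class fit against Adgre1 cells recovered 10 of 12 and 11 of 12, with 1 of 72 called. Named genes are, per comparison, up to 10 called rises and 10 falls whose libraries all lie on the same side, 2 further genes per list by p, and 8 genes always. Alternatives varied the scaling, filter, rule, neighbourhood, blocks and libraries.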

Additional observations from a re-analysis of the deposited data

Results flagged for a closer look

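The change from 0 h differed between members and unmarked cells of the same sections for 6 genes, by the interaction term in edgeR with Benjamini-Hochberg adjustment. At 72 h, Fzd5, a Wnt receptor, changed by -0.70 in members and 0.70 in unmarked cells, a difference of -1.47 ± 0.33 (adjusted p = 0.0290). The other 5 genes rest on the single section of 6 mo. For Sox9, the limit in the rule of unmarked cells bears on the difference as well. Sox9 changed by 2.41 in members and 0.53 in unmarked cells, a difference of 1.89 ± 0.44 (adjusted p = 0.0206). Cldn2, a claudin, changed by 1.53 and -0.32, a difference of 1.83 ± 0.46 (adjusted p = 0.0206). Apof, an apolipoprotein, changed by 0.06 and -0.64, a difference of 0.72 ± 0.17 (adjusted p = 0.0206). Igf1, a growth factor, changed by -0.69 and -1.43, a difference of 0.72 ± 0.18 (adjusted p = 0.0206). Wnt10a, a Wnt ligand, changed by 0.01 and 1.70, a difference of -1.70 ± 0.46 (adjusted p = 0.0290). No alternative was run for these differences.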

How the results depend on the processing

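Members were few at some times, 30 in section 1 of 72 h, and 24 h, 3 mo and 6 mo had 1 library each, so depth and number of sections limit those comparisons. Of 270 repeats of the comparisons, 235 kept their direction and their call (counts of genes within 1.5 times), 19 were weaker, 16 were stronger and 0 turned. For single genes, 3531 of 3859 were kept. The cause of the changes was not tested. With members free of Pecam1 and Lrat, the exact permutation p for the Lyz2 share was 0.125 and the Sox9 log2 ratio 0.44, and edgeR called 7 genes at 24 h, 7 at 48 h, 4 at 72 h, 3 at 3 mo and 1 at 6 mo. Among them Ccne1 at 48 h stood at -0.36 and Ccna1 against unmarked cells at -3.93. Mean Lyz2 counts gave an exact permutation p of 0.0944. DESeq2 called 1 gene at 3 mo, and a Ptprc minimum of 3 gave 1 at 3 mo and 10 at 6 mo. With the 24 h pieces as 2 libraries 5 genes were called at 6 mo. Thinning left 9 calls against Adgre1 cells, and Rspo3 at 0.11.

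Leaving out 1 section at a time, the exact permutation p for the Lyz2 share ran from 0.00357 to 0.0571, the crowding ratio from 0.11 to 0.50, and the calls from 6 to 18 at 48 h, 13 to 26 at 14 d, 0 to 12 at 3 mo and 2 to 8 at 6 mo. Of 12 same-numbered pairs of sections, 1 had a correlation over 0.1. Between times of 2 sections each, both same-numbered pairs gave equal values by construction, so this check could not decide whether the numbers pair samples. With the number as a replicate block 12 genes were called at 48 h, 9 at 72 h and 18 at 14 d. With the slide as a block, 14 d could not be fitted. The thinned Lyz2 share of members chosen on full counts was also added to the settings first planned. Alternatives added after seeing the data gave a crowding difference of 0.54 percentage points, a zone difference of -0.12 against Adgre1 cells, and, for the change minus that of unmarked cells, 0 calls in edgeR at 24 h, 48 h and 14 d (6, 16 and 11 genes at an unadjusted p under 0.05), 1 at 72 h and 5 at 6 mo.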
